A study of Rattus norvegicus with 18 samples.

Results

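Palbociclib given to rats at 100 mg/kg/day was compared with palbociclib at 30 mg/kg/day in scrapings of the jejunal mucosa, the inner lining of the middle small intestine. Each dose had 3 Affymetrix arrays, lettered A to C, so the comparison used 6 of the 18 arrays of the study, chosen by their treatment label alone. All animals were male Sprague Dawley rats, 6 to 8 weeks old by the labels, dosed once daily by mouth. Palbociclib was given in 0.5% methylcellulose, which is also what the 3 vehicle arrays received, so vehicle levels are given beside both doses below. The other groups were abemaciclib at 36 and 120 mg/kg/day and ribociclib at 300 mg/kg/day, given in a different, acidic vehicle, also with 3 arrays each. Dosing ran for 4 or 15 days, but neither the duration nor the animal behind an array is given in the labels. All p-values therefore measure the spread between these arrays and nothing wider. Values were compared for 14217 genes, each represented by its brightest probe set.

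Palbociclib, abemaciclib and ribociclib inhibit CDK4 and CDK6, the kinases that pair with D-type cyclins and phosphorylate the retinoblastoma protein Rb. Phosphorylated Rb releases E2F factors, which switch on genes for DNA synthesis, and p21 and p27 restrain the kinases. The jejunal lining renews itself without pause from stem cells in the crypts, whose daughters divide and then mature into absorptive, mucus-secreting and hormone-producing cells. T lymphocytes, many of them carrying CD8, lie between the epithelial cells.

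All signals below are log2 values, a difference of 1 between doses is a 2-fold difference, and ± marks the standard error of a difference from the limma fit with 3 arrays per dose. The scrapings carried the markers of their labelled tissue. All 12 absorptive enterocyte markers measured were above the array median on all 6 palbociclib arrays, at 11.77 to 14.29, as were 12 of 14 goblet cell markers and 13 of 27 T and NK cell markers. None of 13 neutrophil and eosinophil markers and 1 of 17 markers of enteric nerves and glia reached that level on all 6 arrays. In bulk tissue, fewer cells of a type and less RNA per cell cannot be told apart. Pairs of arrays from different palbociclib doses correlated at 0.979 to 0.989 over all genes, and pairs within a dose at 0.982 to 0.993, so arrays of different doses were nearly as alike as replicates.

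No gene passed an adjusted p of 0.05 between the palbociclib doses (0.0% of genes; limma with Benjamini-Hochberg adjustment), and the lowest adjusted p was 0.557. Giving the arrays unequal weights made 363 genes pass. An unadjusted p under 0.05 was reached by 619 genes, or 4.35%, where 5% would be reached if no gene differed. Of these, 317 were higher at 100 mg/kg/day (2.23%) and 302 lower (2.12%). With each array centred on its median the counts were 221 and 337. With only the palbociclib arrays fitted, 1141 genes reached that p, 637 higher and 504 lower. The 3 arrays of 1 dose lay wholly above or wholly below the 3 of the other for 1909 genes (13.4%), 1011 higher (7.11%) and 898 lower (6.32%) at the higher dose. The median gene differed by 0.02, and the median size of a difference was 0.13. The 95% interval of the difference lay within a 2-fold change in either direction for 11907 genes (83.8%) and within a 4-fold change for 13973 genes (98.3%). Differences over 2-fold were measured for 161 genes (1.13%), and for 101 of these (0.71%) the arrays of the doses did not overlap. With 3 arrays on each side, the smallest two-sided p that exact permutation of the labels allows is 0.1. Neither dose had a gene past the threshold against vehicle: 1023 genes (7.2%) had an unadjusted p under 0.05 at 100 mg/kg/day and 357 (2.51%) at 30 mg/kg/day, and both comparisons use the same vehicle arrays. Results below are therefore values of genes and gene lists, none of which passed the test between palbociclib doses. For every list, shares without overlap stand beside 7.11% of all genes higher and 6.32% lower. Counts at an unadjusted p under 0.05 stand beside 2.23% higher and 2.12% lower.

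Cd8a, which encodes the alpha chain of the cytotoxic T cell coreceptor CD8, had the smallest p of all genes. Its signal was 7.14, 7.15 and 7.72 at 30 mg/kg/day and 6.03, 6.21 and 5.42 at 100 mg/kg/day, against 6.80, 6.96 and 7.24 with vehicle. All 3 arrays of the higher dose lay below the 6 others. The difference between doses was -1.45 ± 0.27, or 2.73-fold lower, with an adjusted limma p of 0.557. The other probe sets named for Cd8a gave -1.71 and -0.40, in the same direction. Cd3d, a signalling chain of the T cell receptor complex, read 7.08, 7.13 and 8.18 at the lower dose and 6.24, 6.45 and 5.52 at the higher dose, where again no array reached the lowest of the other dose (-1.39 ± 0.36). The cytotoxic granule gene Nkg7 read 7.10, 7.45 and 7.504 and then 6.73, 6.46 and 6.47, a difference of -0.80 ± 0.23. Its vehicle arrays were higher than either dose, at 8.08, 7.75 and 7.93. Cd8b, the CD8 beta chain, differed by -0.42 ± 0.14, with 1 array of the lower dose at 4.61, just under 4.62 on array C of the higher dose. Both values lay under the array medians of 5.41 to 5.51, where signals may be background.

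Among 27 T and NK cell genes measured, 23 were lower at 100 mg/kg/day and 4 higher, and the median difference was -0.47, beside 0.02 over all genes. The doses did not overlap for 12 of them (44.4%), all lower, beside 6.32% of all genes in that direction, and 8 had an unadjusted p under 0.05, all lower. Measured from the vehicle mean, the median of the list was -0.11, -0.25 and 0.09 on the arrays of the lower dose and -0.40, -0.43 and -0.97 on those of the higher dose. Array C of the higher dose was the lowest, and without it the median difference was -0.32; without array C of the lower dose, the highest, it was -0.30. Several other genes of the lymphocyte and myeloid surface were among the 10 of smallest p in the lower direction. Cd200r1, a receptor that restrains myeloid cells, was at 5.01, 5.10 and 5.79 and then at 4.48, 4.42 and 4.42. All of these but 5.79 lay under the array medians of 5.41 to 5.51, where signals may be background. Cd37, a tetraspanin of leukocytes, differed by -0.65 ± 0.13, Klrb1c, an NK cell receptor, by -1.10 ± 0.24 and Cd244l1, a receptor of the SLAM family, by -1.08 ± 0.27. A second probe set of Cd244l1 gave -0.06. The doses did not overlap in any of these 4 genes by the brightest probe set, and none passed the test (adjusted limma p of 0.557 to 0.997). The mast cell protease Mcpt9 read 8.86, 8.81 and 9.72 at the lower dose and 8.10, 8.12 and 6.52 at the higher dose, a difference of -1.55 ± 0.58. The other mast cell genes gave little of this, with a list median of -0.04 over 18 genes. The median was 0.05 for genes of B and plasma cells and -0.19 for those of macrophages and dendritic cells, with 18 of 21 lower. The last of these was -0.01 without array C of the lower dose, -0.07 without array C of the higher dose and -0.38 without array A of the lower dose.

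**Figure D1:**
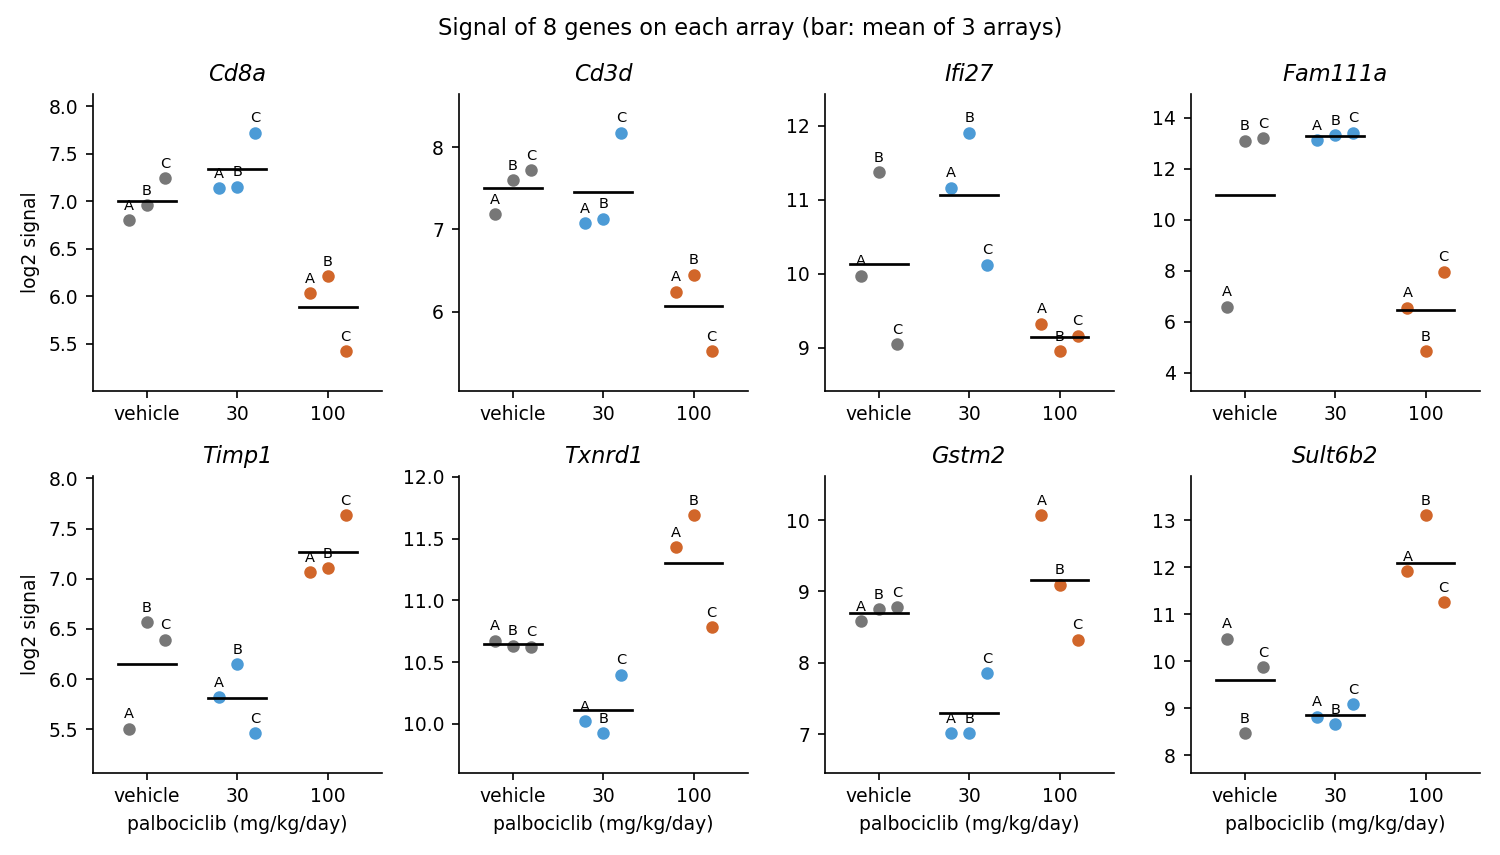
Log2 signal of 8 genes (vertical axes, each with its own range) on every array of vehicle and of palbociclib at 30 and 100 mg/kg/day, 3 arrays per group lettered A to C, with the mean of each group as a bar. The palbociclib doses do not overlap in any of the 8 genes, and Fam111a is low on all 3 arrays of the higher dose and also on vehicle array A.

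All 8 MHC class II genes measured, which present peptides to helper T cells, were lower at 100 mg/kg/day, with a median difference of -0.66. RT1-Db1, a class II beta chain, read 10.82, 12.003 and 10.34 at the lower dose and 10.21, 10.43 and 8.50 at the higher dose. The doses overlapped there, since array C of the lower dose lay below array B of the higher dose, and the difference was -1.34 ± 0.67. Ciita, the coactivator that drives class II transcription, differed by -0.28 ± 0.16 and RT1-DMb, a chain of the peptide-loading molecule, by -0.67 ± 0.43; these are the 2 genes of the list without overlap (25.0%). The list's median from the vehicle mean was 0.22, 0.68 and -0.29 at the lower dose and -0.14, -0.20 and -0.99 at the higher dose. Without array C of the higher dose the median difference was -0.32. RT1-CE5, a class I gene, has 5 probe sets that give unlike values. The brightest, which stands for the gene here, read 7.78, 7.96 and 7.46 and then 7.52, 7.39 and 7.42. Another read 5.64, 5.91 and 5.67 at the lower dose and 3.99, 3.75 and 3.55 at the higher dose, against array medians of 5.41 to 5.51. Its vehicle arrays were at 5.16, 5.60 and 4.64. Low values were also read with abemaciclib, at 3.41 to 4.16 over both doses, and with ribociclib, at 3.91 to 5.18. With each probe set tested on its own, that one was the single probe set to pass (-1.98, adjusted limma p of 0.0174).

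Interferon-stimulated genes were lower at 100 mg/kg/day for 35 of 40 measured, with a median of -0.38 and no overlap for 3 genes (7.5%), beside 6.32% of all genes in that direction. Ifi27, an interferon-induced mitochondrial protein, read 11.16, 11.90 and 10.12 at the lower dose and 9.33, 8.95 and 9.17 at the higher dose, a difference of -1.92 ± 0.49, or 3.77-fold lower. Vehicle arrays spanned nearly all of this, from 9.05 to 11.37. Igtp, an interferon-inducible GTPase, differed by -1.23 ± 0.46 and Ifi44l by -1.03 ± 0.52, both without overlap. Array B of the lower dose carried the highest level of the list, 0.84 above the vehicle mean, while the other 2 arrays of that dose were at 0.12 and -0.45. Without that array the list's median difference was -0.13, and without array C of the same dose -0.75.

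Genes named for smallest p in the lower direction outside the immune lists included Enpp4, an ectonucleotide hydrolase (-0.89 ± 0.19), and Gskip, a protein that binds the kinase GSK3 (-1.01 ± 0.22). Gskip read 8.93, 8.995 and 9.07 at the lower dose and 7.68, 8.04 and 8.25 at the higher dose, with vehicle between them at 8.66 to 8.68. Lrp12, a receptor of the LDL receptor family, differed by -1.18 ± 0.28 and Socs5, a suppressor of cytokine signalling, by -0.85 ± 0.22.

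Timp1, a secreted inhibitor of matrix metalloproteinases, had the smallest p among genes higher at 100 mg/kg/day. It read 5.82, 6.15 and 5.46 at the lower dose and 7.07, 7.10 and 7.64 at the higher dose, against 5.51, 6.57 and 6.39 with vehicle. The difference was 1.46 ± 0.32, or 2.75-fold higher, with an adjusted limma p of 0.557. Of 26 fibroblast and collagen genes 23 were higher, with a median of 0.18. The doses did not overlap for 6 higher genes (23.1%) and 1 lower gene, beside 7.11% and 6.32% of all genes. Of 20 smooth muscle genes 17 were higher, with a median of 0.24 and 5 without overlap (25.0%). The fibroblast median was 0.06 without array A of the lower dose, and the smooth muscle median 0.10 without array B of the higher dose. Rflnb, an actin regulator, differed by 1.70 ± 0.37 and Ddc, which makes dopamine and serotonin from their precursors, by 2.01 ± 0.55. Ddc read 7.31, 7.80 and 7.71 and then 9.18, 10.57 and 9.12, and its second probe set differed by 0.76. Plekhh1, Dhrs1, Crocc, Pknox2 and Ecm1 were also among the 10 of smallest p, with differences of 0.33 to 1.02, as were Txnrd1 and Gstm2. Plekhh1, at 1.02, had a second probe set at -0.45.

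Genes of the NRF2 list, which answer to oxidative and electrophile stress, were higher at 100 mg/kg/day for 24 of 25 measured. The median difference was 0.39, and 7 genes did not overlap (28.0%), all higher, beside 7.11% of all genes in that direction. An unadjusted p under 0.05 was reached by 5, all higher, beside 2.23% of all genes. Txnrd1, the cytosolic thioredoxin reductase, read 10.02, 9.92 and 10.40 at the lower dose and 11.43, 11.69 and 10.78 at the higher dose, a difference of 1.19 ± 0.31. The 3 vehicle arrays lay between the doses, at 10.62 to 10.67. Its second probe set gave 1.24. Gstm2, a glutathione transferase of the xenobiotic metabolism list and not of this one, read 7.01, 7.01 and 7.85 and then 10.07, 9.10 and 8.32. Its difference was 1.88 ± 0.54, with vehicle at 8.59 to 8.78. Ephx1, microsomal epoxide hydrolase, differed by 2.15 ± 0.68, but array B of the lower dose, at 10.81, lay above array C of the higher dose, at 10.11. Its vehicle arrays were at 10.70, 12.09 and 11.51, so here the lower dose held the low values. Tkt, transketolase of the pentose phosphate pathway, differed by 0.80 ± 0.27. Measured from the vehicle mean, the list's median was -0.27, -0.27 and -0.12 at 30 mg/kg/day and 0.16, 0.29 and 0.12 at 100 mg/kg/day, without overlap. Without array B of the higher dose the median difference was 0.23.

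The largest differences of the comparison, counting only genes whose doses did not overlap, included several drug-metabolising enzymes. Sult6b2, a sulfotransferase, read 8.82, 8.66 and 9.09 at the lower dose and 11.91, 13.11 and 11.25 at the higher dose, or 9.38-fold higher, with an interval of 0.91 to 5.55 in log2 terms. Cyp1a1, the cytochrome induced through the aryl hydrocarbon receptor, read 7.20, 6.01 and 5.11 and then 9.71, 10.03 and 8.06, a difference of 3.16 ± 1.37. Vehicle arrays of Cyp1a1 ran from 5.20 to 12.92, wider than the gap between the doses. Cyp2s1, another cytochrome, differed by 2.53 ± 1.11, with the doses separated by 7.83 against 7.84. Papss2, which makes the sulfate donor used by sulfotransferases, differed by 1.95 ± 1.01. Of the 32 xenobiotic metabolism genes measured, 23 were higher, 9 with an unadjusted p under 0.05, while the median was 0.17. The doses did not overlap for 7 higher genes (21.9%) and 1 lower gene, beside 7.11% and 6.32% of all genes. The efflux pump Abcc2 differed by 1.41 ± 0.49 and the glutathione transferase Gsta4 by 1.24 ± 0.44.

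**Figure D2:**
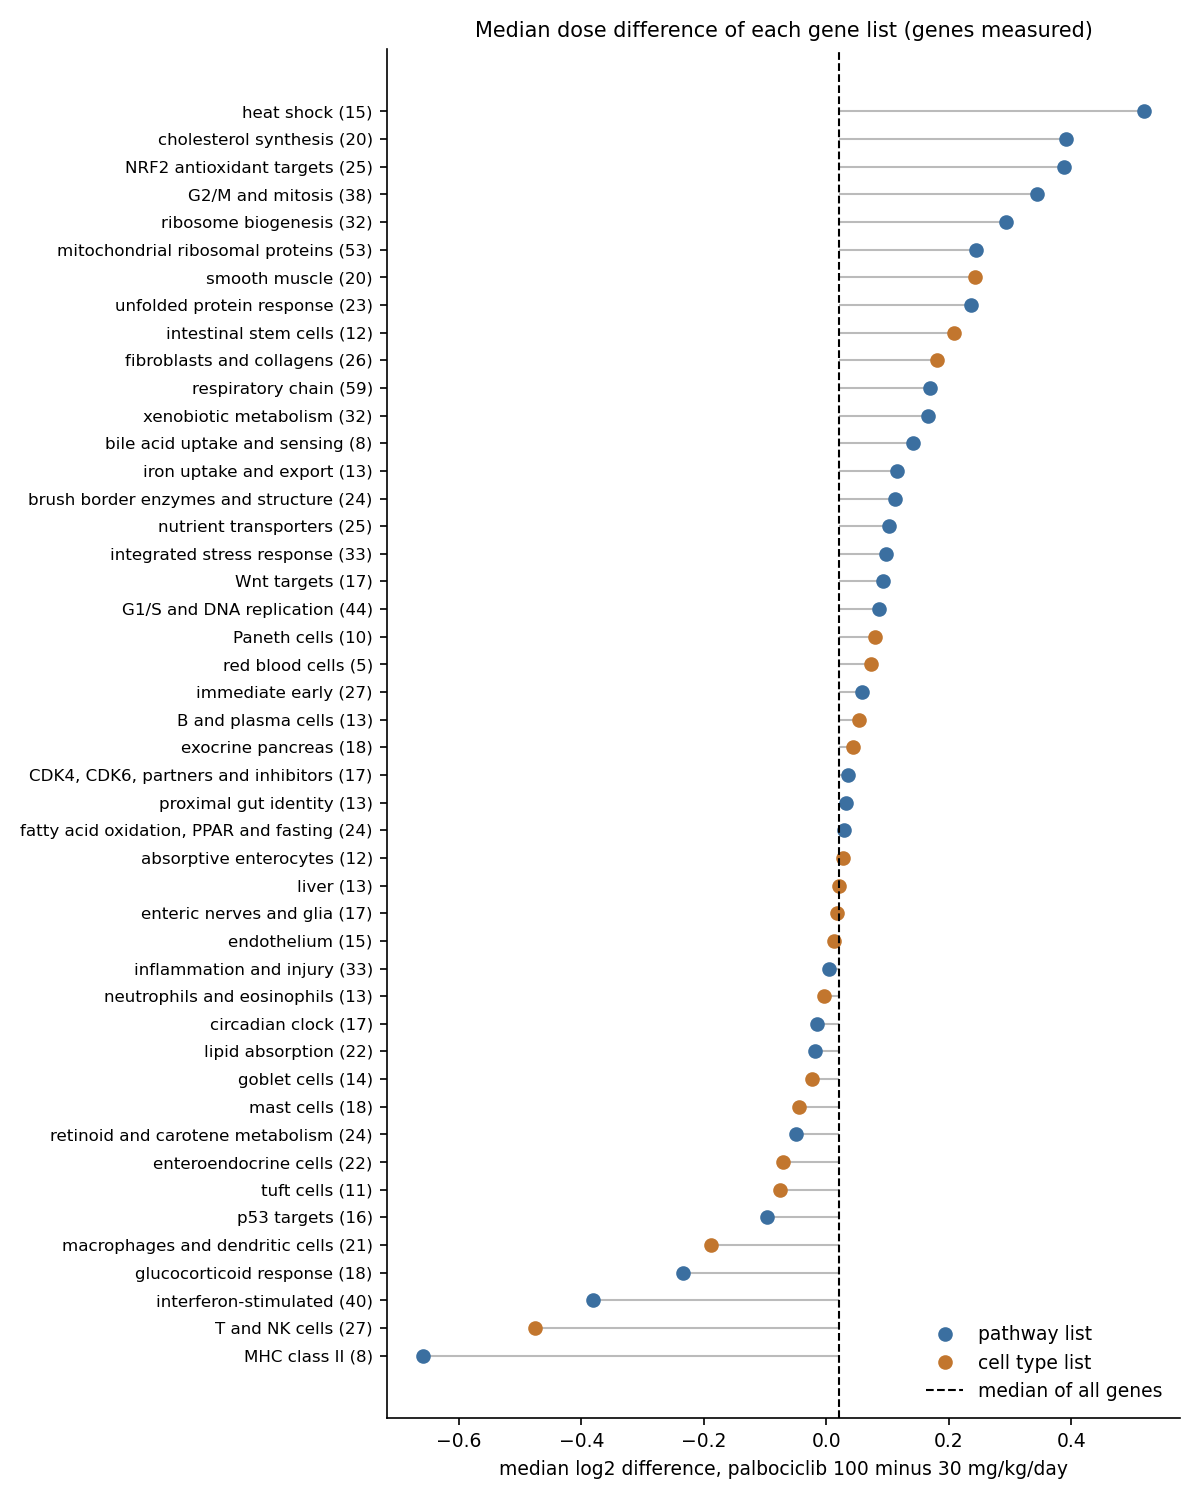
Median log2 difference between palbociclib at 100 and 30 mg/kg/day (horizontal axis) for 28 pathway lists and 18 cell type lists, with the number of genes measured after each name, and the median of all 14217 genes as a dashed line at 0.02. Heat shock genes have the highest median, 0.52, and MHC class II genes the lowest, -0.66.

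Heat shock genes, the chaperones and their regulators, had the highest median of the 46 lists at 0.52, with 12 of 15 higher and 8 without overlap (53.3%). Hsph1, a chaperone of the HSP110 family, read 8.07, 8.21 and 8.38 at the lower dose and 8.98, 9.51 and 9.21 at the higher dose (1.01 ± 0.41), and Bag3, a co-chaperone, differed by 1.00 ± 0.44. Hsf1, the transcription factor of the response, differed by 0.53 ± 0.27 and Hspe1, a mitochondrial chaperonin, by 0.93 ± 0.48. On single arrays the list stood at -0.19, -0.33 and -0.20 from the vehicle mean at the lower dose and at -0.12, 0.47 and 0.09 at the higher dose. Array B of the higher dose was the highest, and without it the median difference was 0.30. Cholesterol synthesis genes had a median of 0.39, with 18 of 20 higher and 4 without overlap (20%). Tm7sf2, a sterol reductase, read 8.98, 8.65 and 8.95 and then 9.47, 10.10 and 9.56, while Cyp51, the lanosterol demethylase, overlapped between doses (0.98 ± 0.58). Unfolded protein response genes had a median of 0.24 (0.10 without array A of the lower dose) and integrated stress response genes one of 0.10 (-0.01 without array B of the higher dose). Within the latter, Ppp1r15a, which reverses the phosphorylation of eIF2 alpha, differed by 1.27 ± 0.38 and Nupr1, a stress-induced nuclear protein, by -0.86 ± 0.25, in opposite directions.

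Genes of the glucocorticoid response were lower for 15 of 18 measured, with a median of -0.23 and 4 without overlap, all lower (22.2%). Tsc22d3 (GILZ) read 10.92, 10.28 and 10.24 at the lower dose and 9.08, 9.78 and 9.73 at the higher dose, and Sgk1, a serum- and glucocorticoid-induced kinase, 13.28, 13.24 and 12.80 and then 12.52, 11.81 and 12.31. Fkbp5, a cochaperone of the glucocorticoid receptor, went against these at 1.24 ± 0.51, with overlap, and its second probe set differed by 1.74. Without array B of the higher dose the list's median was -0.13, and without array A of that dose -0.49. Pdk4, the fasting-induced inhibitor of pyruvate dehydrogenase, read 12.14, 11.84 and 11.37 and then 10.47, 10.52 and 10.45 (-1.31 ± 0.56). The median of the 24 fatty acid oxidation, PPAR and fasting genes was 0.03.

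**Figure D3:**
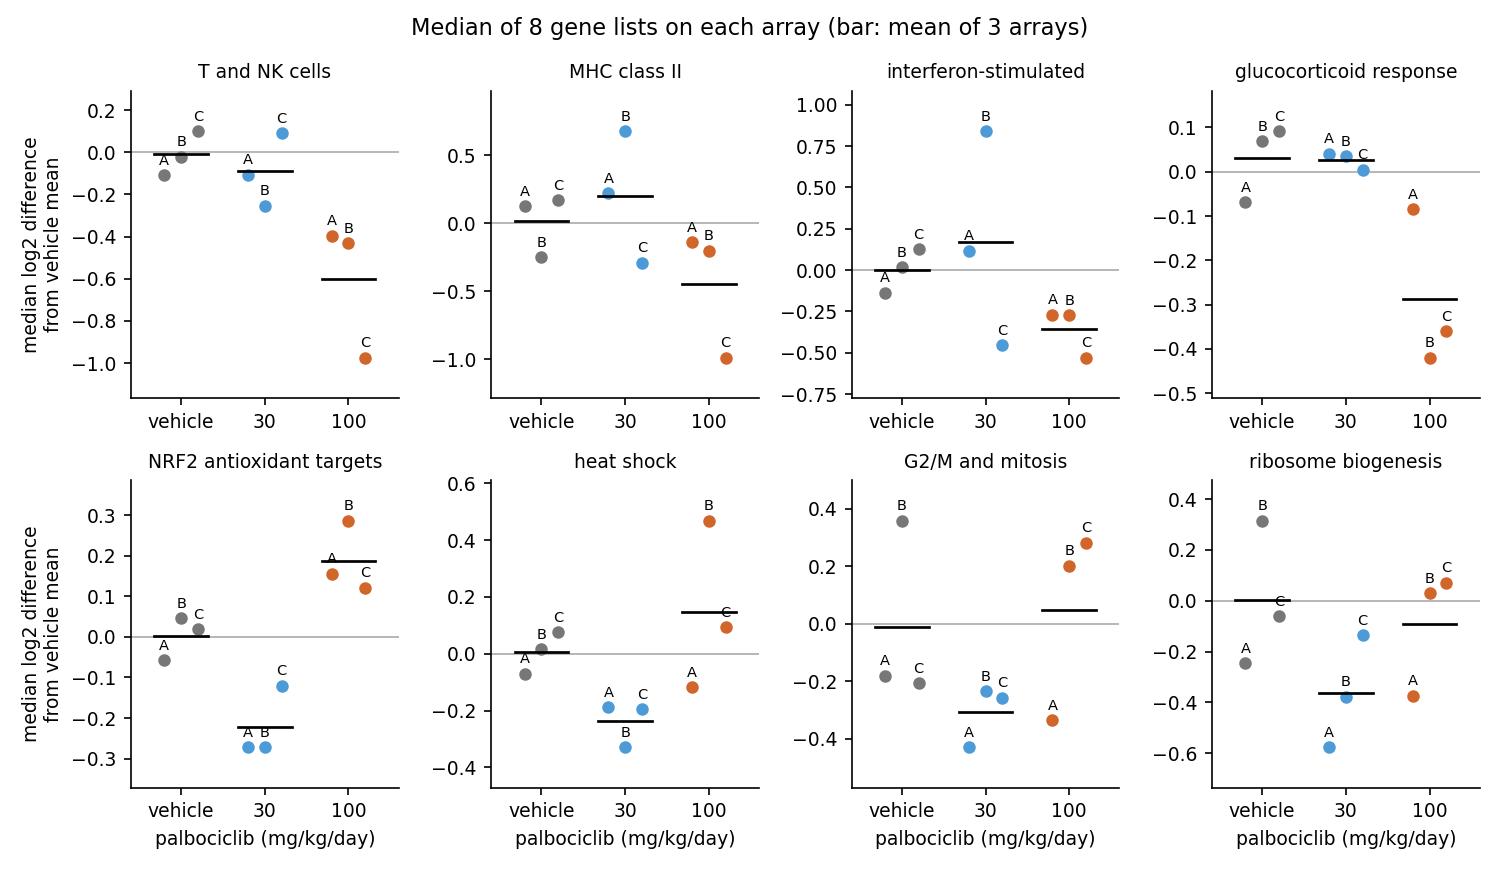
Median over each of 8 gene lists of the log2 difference from the vehicle mean (vertical axes) on every array of vehicle and of palbociclib at 30 and 100 mg/kg/day, 3 arrays per group lettered A to C, with group means as bars. The doses do not overlap for T and NK cell, glucocorticoid response, NRF2 and heat shock genes, and they overlap for MHC class II, interferon-stimulated, G2/M and ribosome biogenesis genes.

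No gene of the inhibited pathway passed the test between the doses, and their differences ran from near 0 to about 2-fold. Cdk4 read 6.72, 7.25 and 7.37 at the lower dose and 7.17, 7.55 and 7.42 at the higher dose (0.26 ± 0.46), and Cdk6, whose signal was low throughout, differed by -0.08 ± 0.11. Ccnd1, cyclin D1, differed by 0.72 ± 0.53. Rb1 differed by 0.02 ± 0.18, a value whose sign turned when arrays were centred or quantile-normalised again. Cdkn1b, which encodes p27, was at 11.14, 10.74 and 10.77 and then at 10.23, 10.50 and 10.26, without overlap (-0.55 ± 0.28), and Cdkn1a, which encodes p21, differed by 0.31 ± 0.23, with 0.07 on its second probe set. Cdkn1c, which encodes the related inhibitor p57, read 7.33, 7.72 and 8.55 at the lower dose and 9.46, 10.06 and 7.26 at the higher dose, with vehicle at 8.00, 9.18 and 9.76. Array C of the higher dose was the lowest of all these, so the doses overlapped, and the difference was 1.06 ± 0.59. Cdkn2d, which encodes the CDK4 inhibitor p19, differed by -0.41 ± 0.26. Over the 17 genes of CDK4, CDK6, their partners and inhibitors the median was 0.03. Without overlap, 2 were higher (11.8%) and 3 lower (17.6%).

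Genes of G2/M and mitosis were higher at 100 mg/kg/day for 34 of 38 measured, with a median of 0.34, but none had an unadjusted p under 0.05. Ccnb2, a mitotic cyclin, read 5.32, 5.90 and 5.90 at the lower dose and 5.95, 7.08 and 7.30 at the higher dose, a difference of 1.07 ± 0.53. Vehicle arrays lay across the same range, at 6.15, 6.85 and 5.62. The doses did not overlap for 7 of the 38 genes, 6 higher (15.8%) and 1 lower. On single arrays the list's median was -0.43, -0.24 and -0.26 at the lower dose and -0.34, 0.20 and 0.28 at the higher dose, so array A of the higher dose lay among those of the lower dose. Mki67, the proliferation marker, read 6.78, 8.07 and 8.995 and then 7.74, 8.06 and 7.93, and its difference of -0.04 ± 0.64 took either sign when single arrays were left out. For the 44 genes of G1/S and DNA replication the median was 0.09 (0.02 without array B of the higher dose), with 29 higher, 15 lower and none at an unadjusted p under 0.05. Crypt stem cell genes were all higher, 12 of 12, by a median of 0.21, and 3 did not overlap (25.0%). Only 4 of the 12 were above the array median on all 6 palbociclib arrays, and signals under it may be background. The brightest probe set differed by 0.75 for Smoc2, with 0.11 and 0.10 on its others. For Cd44 the brightest gave 0.33 and the other 0.02. Axin2, a feedback inhibitor and target of Wnt signalling, differed by 0.94 ± 0.35 and Lgr5, the stem cell receptor, by 0.18 ± 0.15 at a signal of 3.86 to 4.24.

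Ribosome biogenesis genes had a median of 0.29 and 6 of 32 without overlap, all higher (18.8%). Without array A of the lower dose the list's median was 0.16. Pa2g4, a growth-regulating nucleolar protein, read 8.64, 9.08 and 9.12 and then 9.16, 9.94 and 9.68, while its second probe set differed by 0.07. Mitochondrial ribosomal protein genes had a median of 0.25, with 47 of 53 higher. The doses did not overlap for 5 of them, all higher (9.4%), near the 7.11% of all genes. Respiratory chain genes had a median of 0.17, with 55 of 59 higher and 10 without overlap (16.9%). Mrps18b, of the small mitochondrial ribosomal subunit, differed by 1.07 ± 0.33, and Ndufv1, of complex I, by 0.65 ± 0.28. On single arrays both lists overlapped between doses: array C of the lower dose stood at 0.15 and 0.10 from the vehicle mean, above array A of the higher dose at -0.34 and -0.05. Without array A of the lower dose the medians were 0.01 and 0.07, and without array C of the higher dose 0.12 and 0.10.

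Lists of mature epithelial cells had medians near 0, with single members on either side. The 12 absorptive enterocyte genes had a median of 0.03 and none without overlap, and Fabp1, the liver-type fatty acid binding protein, read 14.11 to 14.24 at the lower dose and 14.13 to 14.18 at the higher dose. Alpi, intestinal alkaline phosphatase, differed by 0.32 ± 0.63. Muc2, the main intestinal mucin, differed by -0.15 ± 0.11, Zg16, a goblet cell lectin, by -0.17 ± 0.08 and the trefoil peptide Tff3 by -0.21 ± 0.10, the last 2 without overlap. The goblet cell list had a median of -0.02 and ran from -0.56 to 1.44, the value of Spink4, a goblet cell peptide that read 8.48, 9.32 and 7.82 and then 8.62, 10.77 and 10.56, with overlap. Lipid absorption genes had a median of -0.02. Brush border genes had one of 0.11 and ran from -0.84 to 0.89, and nutrient transporters had one of 0.10 and ran from -0.15 to 1.22. Of 10 Paneth cell genes, whose median was 0.08, 2 were higher and 2 lower without overlap (20% each), over a range of -0.86 to 1.80. The lower ones, Nupr1 and Ang, a ribonuclease of the angiogenin family (-0.61 ± 0.26), had an unadjusted limma p under 0.05. Of 22 enteroendocrine genes, whose median was -0.07, 1 was higher (4.5%) and 5 were lower (22.7%) without overlap. These shares stand beside 7.11% and 6.32% of all genes.

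Several genes whose expression varies along the length of the gut are described because of their values. They had their most extreme palbociclib value on array B of the higher dose. The 13 proximal gut genes measured had a median difference of 0.03, with 8 above 0, and their median from the vehicle mean was 0.12, 0.09 and 0.00 on arrays A, B and C of the higher dose. The 8 genes of bile acid uptake and sensing had a median of 0.14, with 5 above 0. Without overlap, 1 was higher (12.5%) and 2 were lower (25%). Pdx1, a homeobox factor of the duodenum, read 6.73 on array B of the higher dose against 3.84 to 4.15 on the other 5 palbociclib arrays. Onecut2, another transcription factor of the proximal intestine, read 10.17 there, with 7.02 and 4.53 on the other 2 arrays of the dose and 6.99, 4.53 and 4.58 at the lower dose. Cck, the cholecystokinin gene of proximal hormone cells, read 11.21 there and 7.48 to 9.04 on the 5 others, and the iron exporter Slc40a1 read 12.03 there and 9.06 to 10.35 on the others. On the same array, genes typical of more distal gut were low: Nts, neurotensin, read 9.22 against 11.23 to 12.69, Pyy, peptide YY, 4.95 against 6.50 to 8.22, and Plb1, a brush border phospholipase, 4.45 against 8.95 to 11.61. Without that array the difference of Cck went from 1.502 to 0.65, that of Onecut2 from 1.87 to 0.41, that of Pdx1 from 0.83 to -0.11, that of Slc40a1 from 1.22 to 0.60, that of Nts from -1.68 to -0.92, that of Pyy from -1.504 to -0.84 and that of Plb1 from -3.01 to -1.42. Fabp6, the ileal bile acid binding protein, was low on all 3 arrays of the higher dose, at 4.16, 4.43 and 5.52, and read 7.30, 10.36 and 5.85 at the lower dose. Its difference was -3.14 ± 1.55, and -2.998 without array B of the higher dose. Without array B of the lower dose the difference was -1.88, and without array C of that dose -4.13. Whether the stretch of gut scraped had a part in any of these values was not tested.

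**Figure D4:**
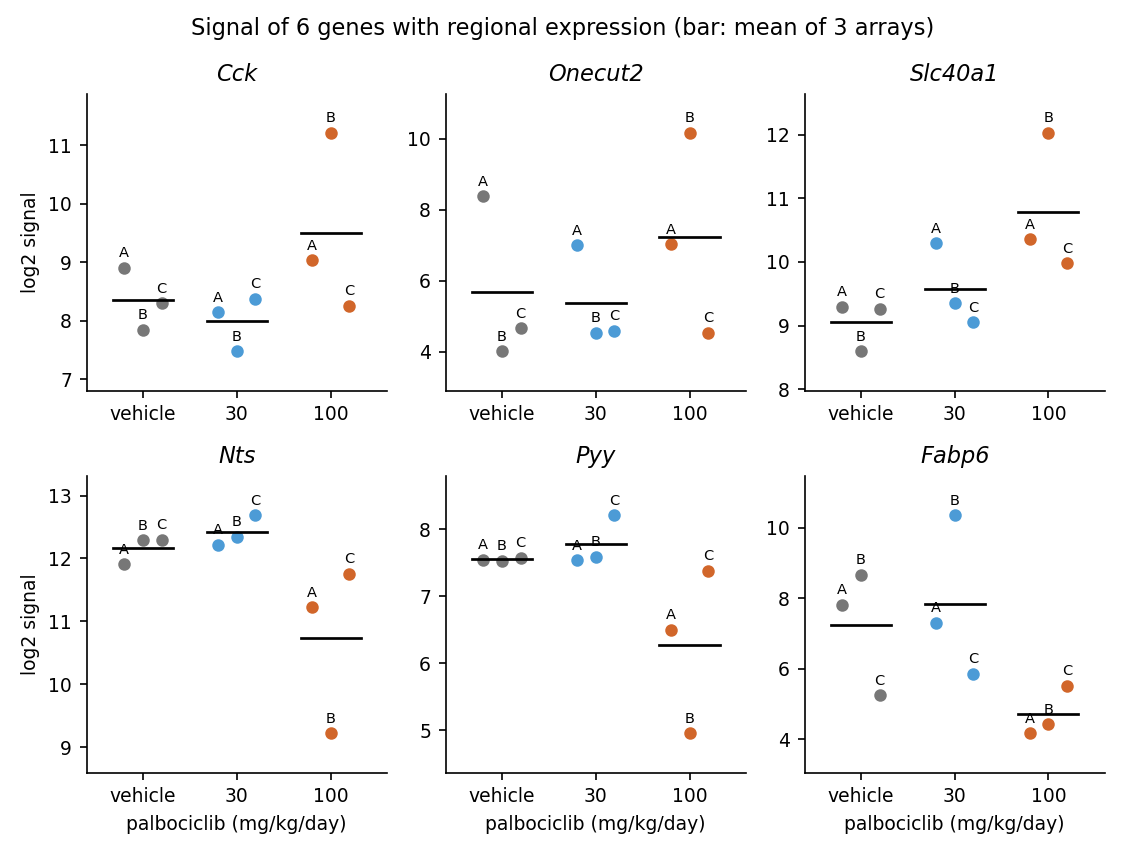
Log2 signal of 6 genes with regional expression along the gut (vertical axes, each with its own range) on every array of vehicle and of palbociclib at 30 and 100 mg/kg/day, 3 arrays per group lettered A to C, with group means as bars. Array B of the higher dose is the highest of the group for Cck, Onecut2 and Slc40a1 and the lowest for Nts and Pyy.

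The largest difference of all genes was that of Fam111a, a protease that acts at replication forks and restricts viral replication. It read 13.12, 13.32 and 13.41 at 30 mg/kg/day and 6.55, 4.84 and 7.97 at 100 mg/kg/day, a difference of -6.83 ± 1.80, or 114-fold lower, at an unadjusted limma p of 0.0016. Low values were not limited to the higher palbociclib dose. Vehicle array A read 6.59 beside 13.10 and 13.21 on the other vehicle arrays, and array A of abemaciclib at 36 mg/kg/day read 4.82 beside 12.60 and 13.29. The gene passed the test when only the palbociclib arrays were fitted (adjusted limma p of 0.0235) and when arrays were weighted (0.0224), and not in the fit to all 6 groups (0.997), whose spread includes those 2 other low arrays. Zp2, named for the egg coat protein it encodes, was at 9.03, 9.06 and 9.16 at the lower dose and at 5.35, 8.44 and 5.32 at the higher dose.

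The dose difference of palbociclib was then set beside that of abemaciclib, another CDK4/6 inhibitor, which shares no array with it. The doses are not matched, at 100 against 30 and 120 against 36 mg/kg/day, and the compounds were given in different vehicles, so the test asks only whether these pairs of doses differed alike. Array B of abemaciclib at 120 mg/kg/day is grouped by its treatment label, while its title names 100. Between the abemaciclib doses 1079 genes passed the test (7.59%), 685 higher (4.82%) and 394 lower (2.77%) at 120 mg/kg/day, or 533 and 781 with each array centred. Without array A or B of the lower abemaciclib dose 483 or 579 passed, and without array A of the higher one 397. Among these 1079 genes the median size of the difference was 1.15 with abemaciclib and 0.18 with palbociclib, beside 0.13 over all genes with palbociclib. The abemaciclib test chose these genes, so their abemaciclib size is large by selection. Of them, 750 (69.5%) had the same sign with both compounds, beside 53.2% of all genes. Across all 14217 genes, which are not independent replicates, the differences correlated at 0.17. A direct test of the difference between the dose differences (an interaction term in limma) was passed by 50 genes (0.352%). These were 18 above 0 (0.127% of all genes) and 32 below 0 (0.225%). Below 0 means that the palbociclib difference, taken with its sign, was lower than the abemaciclib difference, whatever their sizes. In 29 of the 50 genes the differences of the compounds had opposite signs. All 50 also passed between the abemaciclib doses, 47 of them with over a 2-fold difference, while 1 gene had over a 2-fold difference between the palbociclib doses. Both dose differences are parts of the test that selected these 50 genes. The actin 3′ to 5′ signal ratio, a measure of RNA integrity, was 0.50 to 0.77 in log2 terms on the 6 palbociclib arrays, 0.53 to 0.80 at the lower abemaciclib dose and 0.86 to 1.05 at the higher one. With that ratio in the fit, 1 of the 50 genes passed. The count also moved with single arrays: without array A, B or C of the lower palbociclib dose it was 7, 8 or 7, and without those of the higher dose 2, 6 or 27. It was 2 or 297 without array A or C of abemaciclib at 36 mg/kg/day and 4 or 133 without array A or B at 120 mg/kg/day.

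**Figure D5:**
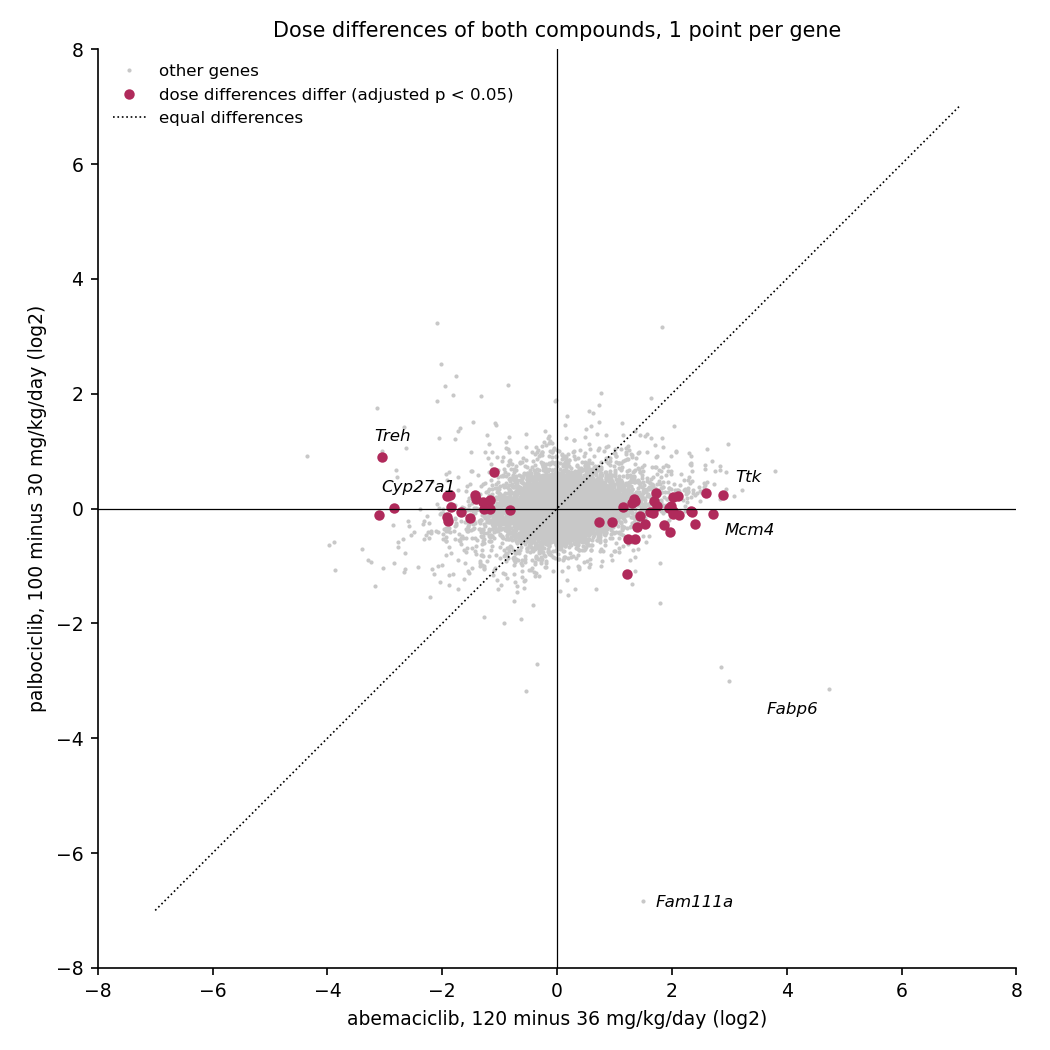
Log2 difference of 14217 genes between palbociclib at 100 and 30 mg/kg/day (vertical axis) and between abemaciclib at 120 and 36 mg/kg/day (horizontal axis), 1 point per gene, with the 50 genes whose differences differed (adjusted p under 0.05) enlarged. The 50 genes spread along the abemaciclib axis and, but for 1, lie within 1 of 0 on the palbociclib axis; Fam111a, at -6.83 with palbociclib, is not among them.

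Cyp27a1, the mitochondrial sterol 27-hydroxylase, was the gene that passed under all 21 alternatives, 12 of which left out 1 array. It read 10.78, 10.54 and 10.58 with palbociclib at 30 mg/kg/day and 10.78, 10.70 and 10.43 at 100 mg/kg/day, a difference of 0.00 ± 0.23. With abemaciclib it read 10.59, 10.41 and 10.12 at 36 mg/kg/day and 7.38, 7.96 and 7.25 at 120 mg/kg/day. The dose differences thus differed by 2.85 ± 0.32 (adjusted limma p of 0.00203; 0.0209 with the actin ratio in the fit). Treh, the brush border trehalase, was higher by 0.89 ± 0.49 between palbociclib doses and differed by -3.05 between abemaciclib doses, so the differences were 3.94 ± 0.69 apart. Slc28a1, a concentrative nucleoside transporter, gave 2.98 ± 0.56, Pklr, the liver-type pyruvate kinase, 2.14 ± 0.39 and Ace, angiotensin-converting enzyme, 2.10 ± 0.41. In these 3 genes the palbociclib difference was -0.11, 0.22 and 0.23.

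The 5 largest values below 0 were those of Mcm4, Kif15, Ttk, Mcm7 and Blm, genes of replication and mitosis. Mcm4, a subunit of the replicative helicase, read 4.57, 4.59 and 4.86 and then 4.52, 4.90 and 4.33 with palbociclib, and 4.81, 5.17 and 6.32 and then 8.52, 7.76 and 8.15 with abemaciclib. The differences were -0.09 and 2.71, which is -2.80 ± 0.57 apart (adjusted limma p of 0.0485). Mcm7, of the same helicase, gave -2.41 ± 0.50, the kinesin Kif15 -2.67 ± 0.53, the spindle checkpoint kinase Ttk -2.65 ± 0.44 (by its brightest probe set) and the Bloom helicase Blm -2.37 ± 0.40. The palbociclib means of Mcm4, Kif15, Ttk and Blm lay under the array medians of 5.41 to 5.51, where signals may be background. Without dim genes, 5 of the 50 genes passed. Of the 32 genes below 0, 7 were in the lists of G1/S or G2/M genes, whose 82 measured members are 0.577% of all genes; the rest of those 82 did not pass. For the whole G2/M list the median dose difference was 0.34 with palbociclib and 2.06 with abemaciclib, where 38 of 38 genes passed between doses; for 2 of the 38 the difference between compounds passed. For the G1/S list the medians were 0.09 and 1.20, with 33 of 44 passing for abemaciclib and 5 passing the test between compounds. Mki67 gave -0.04 and 2.22, and the difference between these did not pass (adjusted limma p of 0.289). MHC class II genes had medians of -0.66 with palbociclib and -2.80 with abemaciclib, where 7 of 8 passed between doses and none passed between compounds.

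Because E2F factors act at promoters of replication genes, the RefSeq promoters of the 50 genes (build GRCr8) were searched from 250 bases before to the start of each gene for 3 E2F-type motifs, TTTCCCGC, TTTGGCGC and TTTCGCGC, on both strands. Of the 32 genes below 0, 24 had a promoter in the table and 5 of these (20.8%) held a motif; of the 18 above 0, 12 had a promoter and none held one. Over all measured genes 291 of 11733 promoters (2.48%) held a motif. Each match is printed with 14 bases to each side where the window allows, 5′ to 3′ on the strand of the gene, because they are the matches found among the 32 genes below 0. Capitals mark the motif or its reverse complement, 1 match to a line. The Mcm7 matches are at chr12:22163390-22163425 and chr12:22163209-22163244 (minus strand), the Hells match is at chr1:246114086-246114121 (plus strand), and the Mcm2 matches, which overlap each other, are at chr4:122918095-122918122 and chr4:122918095-122918118 (minus strand). The Zfp367 matches are at chr17:970845-970880 and chr17:970859-970894 (plus strand), windows that overlap, and the Dtl match is at chr13:105685944-105685979 (minus strand). A match is a stretch of letters and not a shown binding site.
Mcm7, first match: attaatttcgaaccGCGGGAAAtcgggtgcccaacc
Mcm7, second match: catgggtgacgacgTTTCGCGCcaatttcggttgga
Hells: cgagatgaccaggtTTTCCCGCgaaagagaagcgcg
Mcm2, first match: tcacgtgacccggtTTTCGCGCgaaaac
Mcm2, second match: gtgacccggttttcGCGCGAAAac
Zfp367, first match: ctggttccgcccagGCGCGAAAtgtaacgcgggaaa
Zfp367, second match: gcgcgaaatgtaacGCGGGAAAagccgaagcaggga
Dtl: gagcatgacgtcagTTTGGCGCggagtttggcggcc
Between the palbociclib doses these genes differed by -0.06 for Mcm7, -0.12 for Hells, a helicase of chromatin, 0.21 for Mcm2, -0.08 for Zfp367, a zinc finger protein, and -0.23 for Dtl, an adaptor that targets replication factors for degradation. Mean signals at the lower and higher palbociclib dose were 3.93 and 3.82 for Hells, 3.72 and 3.65 for Zfp367 and 4.62 and 4.38 for Dtl. These lay under the array medians of 5.41 to 5.51, where signals may be background. Mcm2 was at 5.29 and 5.50 and Mcm7 at 6.67 and 6.61. The values of these genes between the abemaciclib doses are part of the test that selected them.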

How the data were processed

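Total RNA of rat jejunal scrapings was hybridised to 18 Affymetrix arrays. The authors deposited log2 expression values per probe set. Per the submitters' processing notes the tools were Affymetrix Expression Console, RMA and Transcriptome Analysis Console, with no version given. RMA as usually run equalises signal distributions between arrays, so a change in total RNA per cell is not visible. The number of arrays limits the precision. No detection call entered the analysis, so signals near the array median may be background. Of 31099 probe sets, 57 controls were left out and 20826 had 1 gene symbol in GEO's platform annotation, giving 14217 genes by the brightest probe set. Differences were tested with limma 3.58.1 (R 4.3.3; lmFit, eBayes with an intensity trend, all 6 groups in 1 fit, 12 residual degrees of freedom before moderation), with Benjamini-Hochberg adjustment over all genes and a threshold of 0.05; the script was tested on simulated data. Tables and plots used Python 3.11.15. Genes named are the 10 of smallest p and the 5 of largest size in each direction among genes whose doses do not overlap, up to 4 members of smallest p per list, a fixed set of pathway genes, the 5 largest passing interaction genes in each direction, and genes that a described result turns on (RT1-CE5, Slc40a1, Hells, Mcm2, Zfp367 and Dtl were chosen after their values were seen). The comparison, the 46 gene lists and the tests were chosen with earlier results of these data known. Alternatives tried covered normalization, centring, dim genes, probe set choice, weights, groups fitted, RNA quality, replicate letter and each array left out.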

Additional observations from a re-analysis of the deposited data

Results flagged for a closer look

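The difference between the palbociclib and abemaciclib dose differences passed the limma interaction test for 50 genes. Those with the largest values were Treh (3.94), Slc28a1 (2.98), Cyp27a1 (2.85), Pklr (2.14) and Ace (2.10) above 0, and Mcm4 (-2.80), Kif15 (-2.67), Ttk (-2.65), Mcm7 (-2.41) and Blm (-2.37) below 0, in log2 units. Each is singled out because the same kind of contrast gave unlike values with the 2 compounds. Of these 10 genes, Cyp27a1 was the one that passed under every alternative run. With 3 arrays per group, single arrays were not tested as outliers.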

How the results depend on the processing

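Between the palbociclib doses, 0 genes passed in all fits but 3: 1 with every probe set tested on its own (RT1-CE5, -1.98, adjusted limma p of 0.0174), 1 with only the groups compared (Fam111a) and 363 with array weights, which gave array B of the lower dose a weight of 5.41 and array C 0.47. The 619 genes at an unadjusted p under 0.05 became 2805 with array weights, 1141 with only the groups compared and 301 when a fold of 1.5 was also asked. Centring arrays on their median gave 221 higher and 337 lower in place of 317 and 302, and between the abemaciclib doses 533 higher and 781 lower in place of 685 and 394. The 50 genes of the test between compounds became 91 after quantile normalization, 118 with centring, 5 without dim genes, 78 with the mean of probe sets, 22 without the intensity trend, 828 with array weights and 1 with the actin ratio; leaving out single arrays gave 2 to 297. The 1079 abemaciclib genes became 309 with only the groups compared, 436 with the actin ratio and 397 to 1344 without single arrays. Against vehicle, array weights gave 398 genes at the higher and 1247 at the lower palbociclib dose, and leaving out single arrays gave 0 to 1 at the higher (Adora2b without vehicle array A, Ccdc80 without array A of the dose). The cause of these changes was not tested.

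The labels do not say whether the replicate letters pair the arrays. Same-letter deviations of the doses correlated at 0.26, 0.04 and 0.20 for A, B and C. Different-letter deviations correlated at -0.28 to 0.12, so a shared effect of the letter is left undecided. With the letter as a replicate block, 0 genes passed between palbociclib doses and 26 between compounds.

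Near-zero palbociclib differences changed sign. Quantile normalization and centring gave -0.011 and -0.0073 for Rb1 and -0.0070 and -0.025 for Cyp27a1, and array weights gave -0.041 for Rb1, 0.0062 for Fabp1, 0.10 for Slc28a1, 0.085 for Hells and 0.00012 for Mcm7.
Without single arrays the ranges were -0.11 to 1.33 for Pdx1, -0.18 to 0.015 for Cdk6, -0.050 to 0.067 for Rb1, -0.62 to 0.49 for Mki67, -0.048 to 0.019 for Fabp1, -0.31 to 0.087 for Slc28a1, -0.071 to 0.11 for Cyp27a1, -0.25 to 0.037 for Mcm4, -0.49 to 0.035 for Kif15, -0.23 to 0.043 for Hells, -0.19 to 0.014 for Zfp367 and -0.18 to 0.036 for Mcm7. Of 690 list medians recomputed, 34, in 18 lists, moved by more than the spread between replicates. Of 133 single genes examined, 46 passed between palbociclib doses with array weights, Fam111a among them. Of the 10 genes named from the test between compounds, 9 lost the call in at least 1.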

Other observations

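The 17 circadian clock genes measured had a median difference of -0.01 between palbociclib at 100 and 30 mg/kg/day, with 8 above 0 and 9 below, and none passed the test. Per3, a repressor of the clock, had the highest value (1.28) and read 5.09, 6.11 and 6.22 at the lower dose and 8.24, 7.09 and 5.94 at the higher dose, while its second probe set differed by 0.09. Dbp, a clock output factor, read 5.60, 6.75 and 9.20 and then 8.81, 7.60 and 8.79. The replicates of Per3 and Dbp were far apart, and the doses overlapped. Per2, another repressor, read 7.62, 7.56 and 7.71 and then 8.03, 7.77 and 8.17, without overlap, and its second probe set differed by 1.48. Nfil3, a repressor of clock output genes, had the lowest value, -1.03 ± 0.51. The hour of sampling is not in the labels.

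Lcn2, an iron-sequestering protein of inflamed epithelium, was at 4.50, 4.51 and 4.05 and then at 4.67, 4.83 and 5.71, signals mostly under the array medians, and Il18, an epithelial cytokine, differed by 0.82 ± 0.31. The 33 genes of inflammation and injury had a median of 0.00. Ucp2, a mitochondrial carrier, read 9.56, 9.43 and 9.37 at the lower dose and 10.12, 10.05 and 10.14 at the higher dose, with little spread within either. Fos, an immediate early factor, read 12.40, 12.04 and 12.02 and then 11.15, 11.92 and 11.54, without overlap (-0.62), but its second probe set differed by 0.22.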
